A study of Gasterosteus aculeatus with 9 samples.

Results

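Keratins and the proteins of desmosomes were followed through 20 protein names in gill RNA of 9 threespine sticklebacks (Gasterosteus aculeatus). Members were chosen by name, with earlier results of these data known. A transcript was a member by the first database entry name in its row. That name began with K1C (type I keratins) or K2C (type II keratins), or was 1 of 15 listed names. The list held names of desmosome, linker and epithelial adhesion proteins and the transcription factor P63, and 13 of its names occurred. DSC1 and PKP2 were on that list and were not analysed here. The names covered 131 of 98643 transcripts and 36 of 53675 assembled genes, and they were 20 of 10495 entry names. All 20 passed the filter on low counts in each comparison of stations. The entry names are those of similar proteins of other species, so that paralogous stickleback genes can share a name and a name is not a proof of orthology.

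Keratins are the intermediate filament proteins of epithelial cells. A type I keratin pairs with a type II keratin, and the pairs assemble into filaments that run through the cell to its junctions. In desmosomes, the cadherins desmoglein and desmocollin bind the neighbouring cell, plakoglobin and the plakophilins sit on their cytoplasmic tails, and desmoplakin ties this plaque to the keratin filaments. The outer surface of a fish gill is an epithelium of pavement cells over basal cells, with ionocytes between them, while blood, cartilage and muscle lie below it.

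Gill RNA was sequenced from 3 wild fish, caught by electrofishing, at each of 3 stations in the catchment of the river Boye. Station B, the reference, held 12.912 mg/L chloride in its water, station A, of mid salinity, 26.378 mg/L, and station C, of high salinity, 32 mg/L. No fish received an experimental treatment, and age and sex are not given in the labels. The paper reports that the fish were killed by an overdose of tricaine methanesulfonate before the gills were taken. The stations lie in different channels, so that chloride and every other difference between the stations cannot be told apart. Estimated counts per fish summed to between 22049066 and 46214540, and levels are given as CPM, counts relative to a library total scaled by the TMM method of edgeR. CPM is not corrected for transcript length, so levels are compared between fish and not between genes.

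The library of station C replicate 2 stood apart from the other 8. Its TMM factor was 0.590, against 0.993 to 1.14 in the others. Of 17 liver marker names in the table, all 17 were above the other 8 fish, with a summed level of 106563 CPM in station C replicate 2 and 6.56 to 17.7 CPM in the others. TRFE (transferrin, an iron carrier of blood plasma) had 38742 CPM there and 2.55 to 10.5 CPM elsewhere. Skeletal muscle markers summed to 31281 CPM, against 998 to 9496 CPM, with 14 of 16 names above the other 8 fish. Of all features with a median of at least 1 CPM in those 8 fish, 27.2% were above them in this library. Gill ionocyte markers summed to 769.8 CPM, against 1959 to 7619.6 CPM, and FOXI1, the transcription factor of ionocytes, had 0.242 CPM against 61.8 to 287 CPM. Regulators of epithelial identity summed to 87.5 CPM, against 1674 to 2008 CPM, with GRHL2 at 1.84 CPM against 288 to 389 CPM. Of their 11 names, 10 were below the other 8 fish, and ST14 was within their range, at 34.4 against 23.3 to 35.1 CPM. Of 9 ionocyte names, 7 were below those fish, among them VATA, which had 43.3 CPM against 71.4 to 107 CPM. Over all features with a median of at least 1 CPM in those fish, 39.2% were below them. FOXI1 and GRHL2 were therefore near 0 in this library, which is labelled as gill, while they were present in the other 8. The comparisons with station C are given with and without this fish.

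Among the keratins and desmosome proteins, 16 of 20 names were lower in station C replicate 2 than in every one of the other 8 fish, 2 were higher (CADH1 and K1C19) and 2 lay within their range (K1C13 and K2C5). The 16 include K1C18, which was nearly level with the lowest of those fish, at 421.4 against 422.0 CPM. Over all 15032 features with a median of at least 1 CPM in the other 8 fish, 39.2% were lower than in each of them and 27.2% were higher. With a count of 0 set to the limit of 3 counts, the median level of the 20 names in this fish was 12% of the median of the other 8, against 87.2% over all those features. On the same basis the level was under 10% for 10 of 20 names, against 9.13% of all features, and under 1% for 3 of 20 (DSG2, P63 and K1C20), against 1.66%. The 10 names include DSC3 with 2 counts, whose interval reaches 21.1%, and PKP1 with 0 counts, whose interval reaches 11.5%. With the plain library total in place of TMM, 17 names were lower and only CADH1 was higher, since K1C19 was then within the range of the others and K1C13 below it. Levels in this library are lower throughout on that basis, and the share over all features was not computed for it. In bulk RNA, fewer cells of a type and less RNA per cell cannot be told apart. The summed liver and muscle markers were higher in the same library, and their part in the result was not tested.

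**Figure D1:**
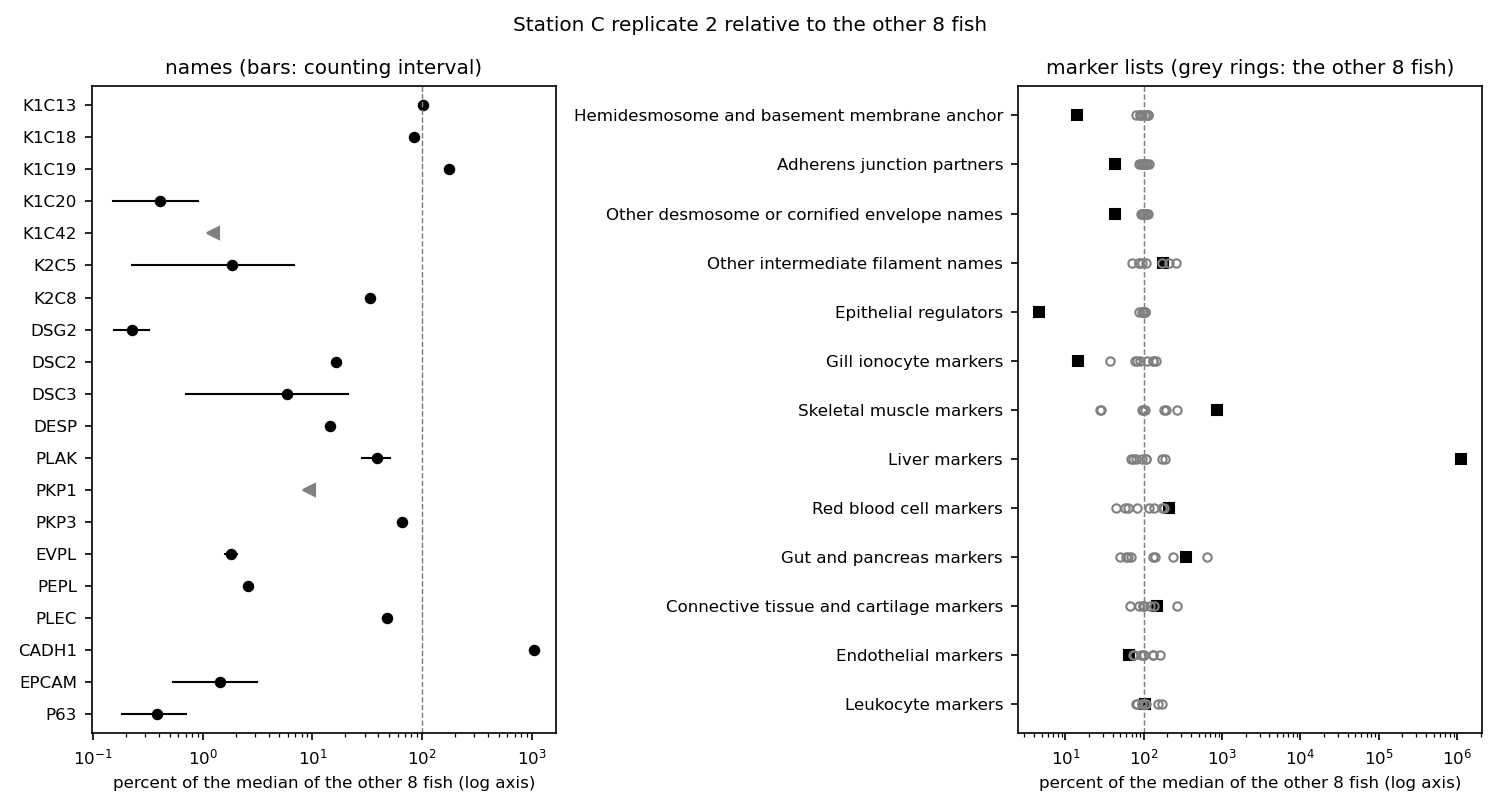
Station C replicate 2 as a percent of the median of the other 8 fish, on a log axis, for the 20 names (left, bars are 95% counting intervals, arrowheads are the limit of 3 counts for names at 0) and for 13 marker lists (right, squares, with the other 8 fish as rings). In TMM CPM, DSG2, P63 and K1C20 sit under 1%, K1C18 and K1C13 near 100%, CADH1 near 1049.8%, and the liver list lies far to the right of every other fish.

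Of the 5 type I keratin names, 3 were lower in station C replicate 2 than in the other 8 fish, against 39.2% of all features with a median of at least 1 CPM. K1C18 was lower only by a narrow gap. K1C19 was higher and K1C13 was within their range. K1C13 had 874, 1165 and 1177 CPM at station B, 672, 641 and 1050.4 CPM at station A, and 629 and 849 CPM in replicates 1 and 3 of station C, with 884 CPM in replicate 2. K1C18, in mammals the type I keratin of simple epithelia, had 456, 520.3 and 511 CPM at station B, 514, 537 and 451 CPM at station A, 422 and 483 CPM in replicates 1 and 3 of station C and 421 CPM in replicate 2. It was among the steadiest names, with a highest over lowest ratio of 1.27 over the 8 fish, and its level in replicate 2 was 84.8% of their median (95% counting interval 83.0 to 86.6%). By the plain library total that level was 47.4% of their median, so the interval does not cover the choice of scaling.

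K1C20 had 84.9, 118 and 85.7 CPM at station B, 59.0, 56.9 and 39.0 CPM at station A and 55.5 and 82.2 CPM in replicates 1 and 3 of station C. The 3 fish of station A lay below the 3 of station B, and replicate 2 of station C had 0.291 CPM from 6 counts, 0.412% of the median of the others (0.151 to 0.897%). K1C42 had 20.1, 15.0 and 18.5 CPM at station B and 6.91, 7.99 and 8.18 CPM at station A, again without overlap. At station C it had 17.9 and 7.09 CPM in replicates 1 and 3, so that replicate 1 lay within the range of station B and replicate 3 within that of station A. It had 0 counts in replicate 2, which is at least 79.9-fold lower than the median of the other 8 when set against the limit of 3 counts in that library (0.145 CPM). K1C19 had 10.5, 17.5 and 16.6 CPM at station B, 11.9, 12.1 and 17.1 CPM at station A and 5.81 and 8.30 CPM in replicates 1 and 3 of station C, both below all 6 fish of the other stations. Replicate 2 had the highest K1C19 level, 21.3 CPM.

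K2C8, the type II partner of K1C18 in mammals, had 2748, 3709 and 4143 CPM at station B, 2410.4, 2486 and 7083 CPM at station A, 3906 and 5561 CPM in replicates 1 and 3 of station C and 1271 CPM in replicate 2. Station A held both the lowest and the highest of the 8 fish, a ratio of 2.94. K2C5, the type II keratin of basal cells in mammals, had 1 named transcript and 14.4, 5.41 and 7.88 CPM at station B, 5.78, 4.97 and 2.10 CPM at station A, 4.12 CPM in replicate 1 of station C, 0 counts in replicate 3 and 0.0969 CPM from 2 counts in replicate 2. The assembled gene of K2C5 also held 7 transcripts named ION3, a keratin-type filament protein of goldfish, which were not members, and 10 such transcripts occurred in member genes in all. The ION3 rows carried most of this gene, DN2053_c0_g1, which with them had 118 to 571 CPM in the 8 fish. It had 156 CPM in replicate 3 of station C, and 17.9 CPM in replicate 2, below all 8. The K2C5 values are thus those of a small part of the gene.

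All 7 desmosome names were lower in station C replicate 2 than in the other 8 fish, against 39.2% of all features with a median of at least 1 CPM. Their median was 14.6% of the level of those fish, against 87.2% over all those features. The 7 names were not 7 separate genes, since the DSC3 rows lay in genes also named DSC2 and DSG2. Of the PKP3 genes, DN15434_c0_g1 was higher in station C replicate 2. In TMM CPM, the PLAK gene, with its rows of other names, was within the range of the other 8 fish. Among the cadherins, DSG2, a desmoglein, had 719.8, 656 and 655 CPM at station B, 647, 669 and 846 CPM at station A and 632 and 813 CPM in replicates 1 and 3 of station C, a ratio of 1.34 between the highest and the lowest of the 8 fish. In replicate 2 of station C it had 1.5 CPM from 31 counts, 0.227% of the median of the others (0.154 to 0.322%) or 441-fold lower. DSC2, a desmocollin, had 442, 488 and 377 CPM at station B, 215, 200.3 and 533 CPM at station A, 473 and 315 CPM in replicates 1 and 3 of station C and 67.0 CPM in replicate 2. Here replicates 1 and 2 of station A were the lowest of the 8 fish and replicate 3 the highest. DSC3, a further desmocollin name, was low, between 1.14 and 2.33 CPM in the 8 fish, with 2 counts in replicate 2 of station C. Its 2 transcripts had no gene of their own. They lay in DN2081_c0_g1, the gene of DSC2, and in DN7348_c0_g1, which also carries the name DSG2.

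Of the plaque proteins, DESP (desmoplakin) had 1239, 1127 and 1012 CPM at station B, 648, 747 and 1499 CPM at station A, 1259.7 and 1179.5 CPM in replicates 1 and 3 of station C and 169 CPM in replicate 2. PKP3, a plakophilin, had 358, 659 and 319 CPM at station B, 373, 394 and 732 CPM at station A, 325 and 343 CPM in replicates 1 and 3 of station C and 238 CPM in replicate 2, which is 65.0% of the median of the others. Replicate 3 of station A was the highest fish for both. PLAK (plakoglobin) lay between 3.59 and 10.7 CPM in the 8 fish and had 2.37 CPM in replicate 2 of station C. Its 1 named transcript was a minor part of the gene DN213_c0_g2, which also held transcripts named NCBP1 and CTNB1. With them the gene had 25.5 to 43.3 CPM in the 8 fish and 32.0 CPM, within their range, in replicate 2 of station C. By the plain library total, this gene was at 51.1% of the median of the 8 fish in replicate 2. PKP1 lay between 1.40 and 3.41 CPM and had 0 counts there, at least 10.7-fold lower than the median of the others.

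The ratio of the highest to the lowest of the 8 fish was 1.64 for PEPL, 1.88 for EVPL and 1.57 for PLEC, the linkers of the plakin family. PEPL (periplakin), which joins the plaque and keratin filaments of surface cells, had 1479, 1544 and 1408 CPM at station B, 941, 1277 and 1383 CPM at station A and 1426 and 1486 CPM in replicates 1 and 3 of station C. EVPL (envoplakin), its binding partner, had 724, 933 and 851 CPM at station B, 497, 610.5 and 614 CPM at station A and 704 and 681 CPM in replicates 1 and 3 of station C. For both, each fish of station A lay below each fish of station B, by a narrow gap for PEPL. In replicate 2 of station C, PEPL had 36.3 CPM and EVPL 12.5 CPM, which are 2.56% and 1.80% of the medians of the others. PLEC (plectin), a linker that many cell types outside epithelia also make, had 533 to 839 CPM in the 8 fish and kept 47.6% of their median in replicate 2, at 343 CPM.

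Of the remaining names, EPCAM, an epithelial adhesion molecule, had 22.2, 29.0 and 28.7 CPM at station B, 15.5, 18.9 and 21.3 CPM at station A, 17.3 and 12.6 CPM in replicates 1 and 3 of station C and 0.291 CPM from 6 counts in replicate 2. All 5 fish of stations A and C other than replicate 2 were below the 3 of station B. P63, the transcription factor of basal epithelial cells, had 94.1, 115 and 139.6 CPM at station B, 96.2, 112 and 178 CPM at station A, 179 and 167 CPM in replicates 1 and 3 of station C and 0.485 CPM from 10 counts in replicate 2, 0.381% of the median of the others. CADH1 (E-cadherin), the cadherin of adherens junctions rather than desmosomes, went the other way. It had 497 CPM in replicate 2 of station C, against 38.7 to 53.8 CPM in the other 8 fish, and was 9.23-fold above the highest of them.

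**Figure D2:**
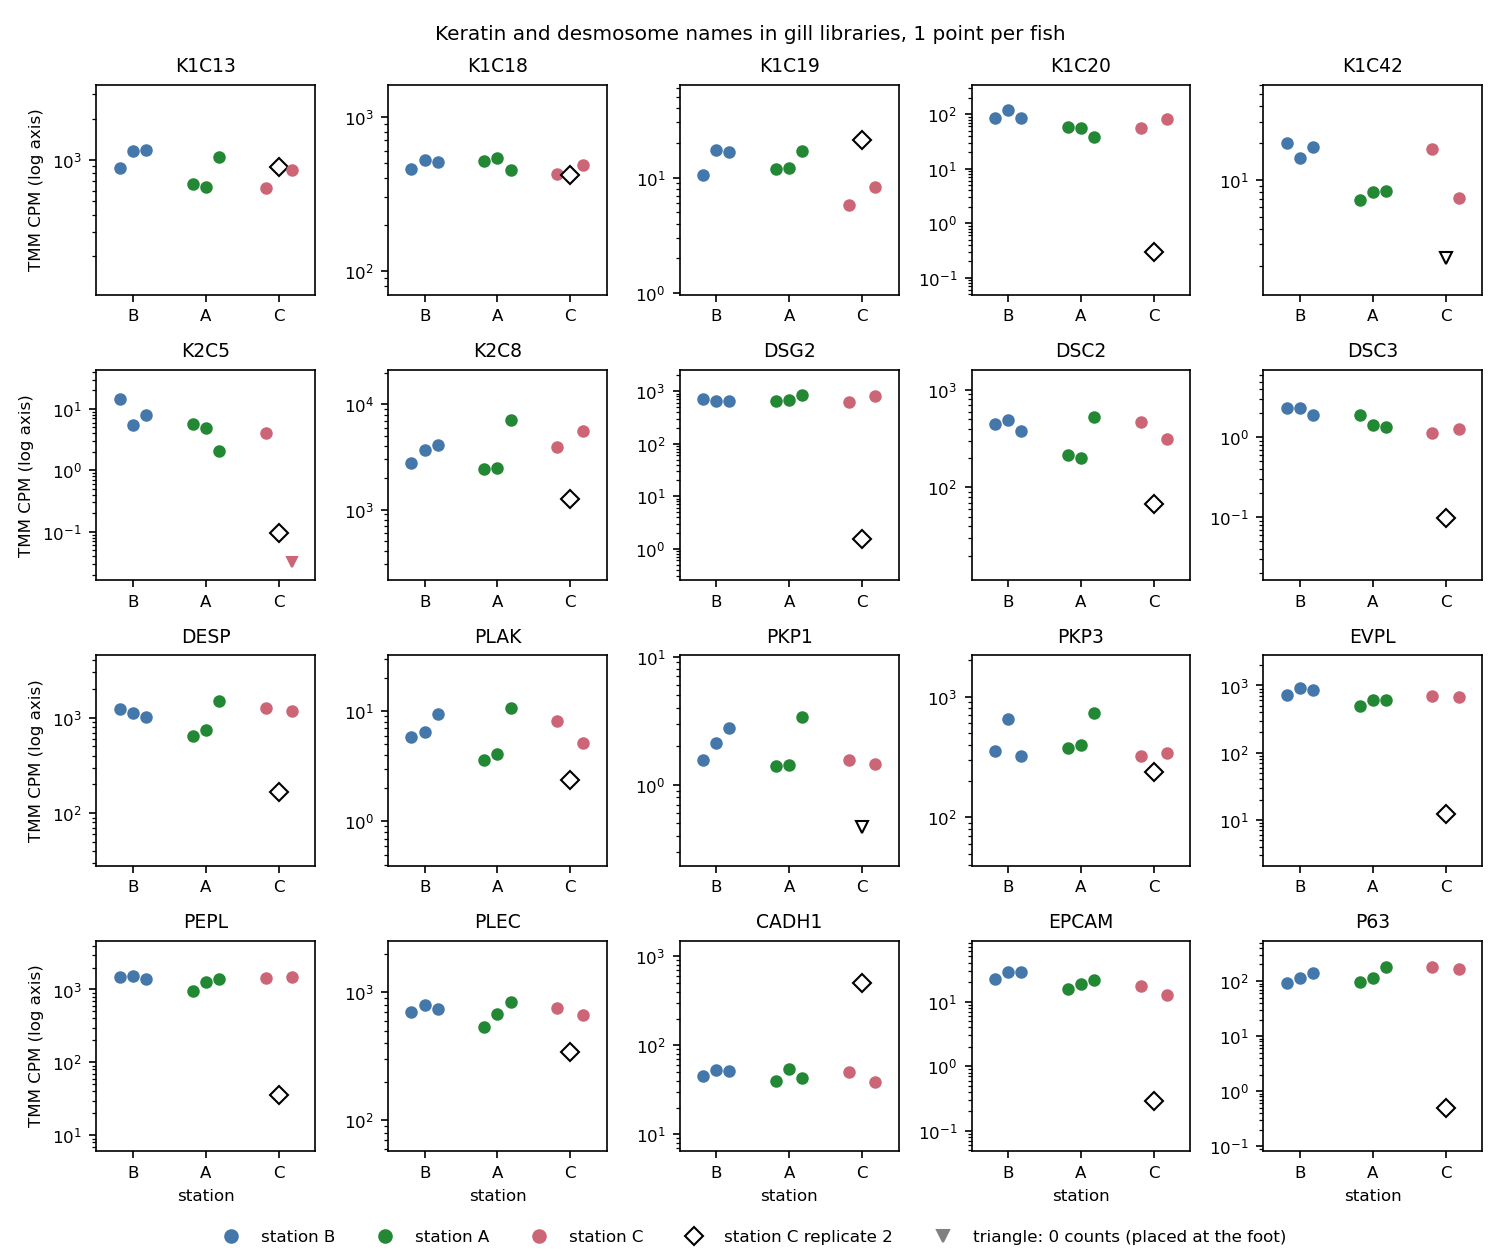
TMM CPM of the 20 names in each of the 9 fish on log axes that differ between panels, by station in order of chloride. Filled circles are the 8 fish, the open diamond is station C replicate 2, and triangles mark 0 counts. K1C42 and K1C20 at station A lie below station B, station A replicate 3 stands above its neighbours for K2C8, DSC2 and DESP, and the diamond lies below all circles for 16 of 20 names, K1C42 and PKP1 included, which had 0 counts there.

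Station A was compared with the reference station B. A name was called where edgeR, in its quasi-likelihood test, gave a p, adjusted by the method of Benjamini and Hochberg, not above 0.05 together with a fold change of more than 2. This held for 0 of 20 members and 0 of 21626 features (0%). At an unadjusted p under 0.05 there were 4 of 20 members, against 5.52% of all features, and all 4 were lower at station A, against 2.29% of all features lower. The median log2 fold change was -0.23 over the 20 names and 0.02 over all features, and 15 of 20 were negative. Each fish of station A was below each fish of station B for 5 of 20 names (EPCAM, EVPL, K1C20, K1C42 and PEPL), against 5.98% of all features, and above for 0 of 20, against 5.1%.

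K1C42 averaged 7.69 ± 0.682 CPM at station A and 17.9 ± 2.57 CPM at station B (SD, n = 3 each), a log2 fold change of -1.20 (SE 0.18) with an adjusted p of 0.486 in edgeR. DESeq2 called it, with an adjusted p of 2.06e-05, the only 1 of 20 members among 110 features or 0.509% of those tested. K1C20 averaged 51.6 ± 11 CPM at station A and 96.1 ± 18.7 CPM at station B, with a log2 fold change of -0.88 (SE 0.23). EVPL averaged 574 ± 66.3 CPM at station A and 836 ± 105 CPM at station B, with a log2 fold change of -0.53 (SE 0.17), and EPCAM had -0.51 (SE 0.18). The edgeR adjusted p of these 3 was 0.873. K2C5 had a log2 fold change of -1.08 (SE 0.51), and its stations overlapped. K2C8, DSG2, PKP3, P63 and K1C18 had positive values between 0.03 and 0.18, each smaller than its standard error. With 3 fish against 3, the smallest p of an exact permutation test for 1 name is 0.1, so no such test was run.

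Station A replicate 3 differed from its neighbours for several names. It was the highest of the 8 fish for 8 of 20 names, against 21.9% of all features, and station A replicate 1 was the lowest for 8 of 20, against 17.1%. DESP had 648 and 747 CPM in replicates 1 and 2 and 1499 CPM in replicate 3. Without replicate 3, 8 of 20 names were lower at station A at an unadjusted p under 0.05, against 9.48% of all features in either direction and 4.68% lower, and the median log2 fold change was -0.53, with 19 of 20 negative. DSC2 then had a log2 fold change of -1.04 (SE 0.15), PLAK of -0.89 (SE 0.30) and DESP of -0.66 (SE 0.15), against -0.46, -0.25 and -0.22 with all 6 fish. The smallest adjusted p among members without this fish was 0.320 in edgeR, for DSC2, so no name was called. Leaving out replicate 1, often the lowest fish, in place of replicate 3 gave a median log2 fold change of -0.03 over the 20 names. In that edgeR fit, 2 of 20 names were lower at an unadjusted p under 0.05, against 408 of 23597 features lower, and 0 were higher. Markers of other cell types also differed between these fish. Leukocyte markers, of which 5 of 10 were in the table, summed to 1751 and 1948 CPM in replicates 1 and 2 of station A and 916 CPM in replicate 3, against 927 to 1205 CPM at station B, and PERF (perforin, of cytotoxic cells) had 728, 746 and 168 CPM at station A, against 163, 225 and 233 CPM at station B. Ionocyte markers, 9 of 11 in the table, summed to 7619.6, 7025 and 1959 CPM at station A, against 4125 to 6871 CPM at station B. Connective tissue and cartilage markers, 10 of 11 in the table, summed to 1359, 882 and 2652 CPM at station A, against 994 to 1193 CPM at station B. Replicate 3 thus had the lowest ionocyte sum of the 8 fish and the highest connective tissue sum. Its leukocyte sum was the lowest by a narrow gap, at 916 CPM against 927 CPM in station B replicate 1. Of the leukocyte names, MPEG1 was lowest in replicate 3, while PERF, PLSL, TCPA and LCP2 were each lower in another fish. The part of these cells in the values of the members was not tested.

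**Figure D3:**
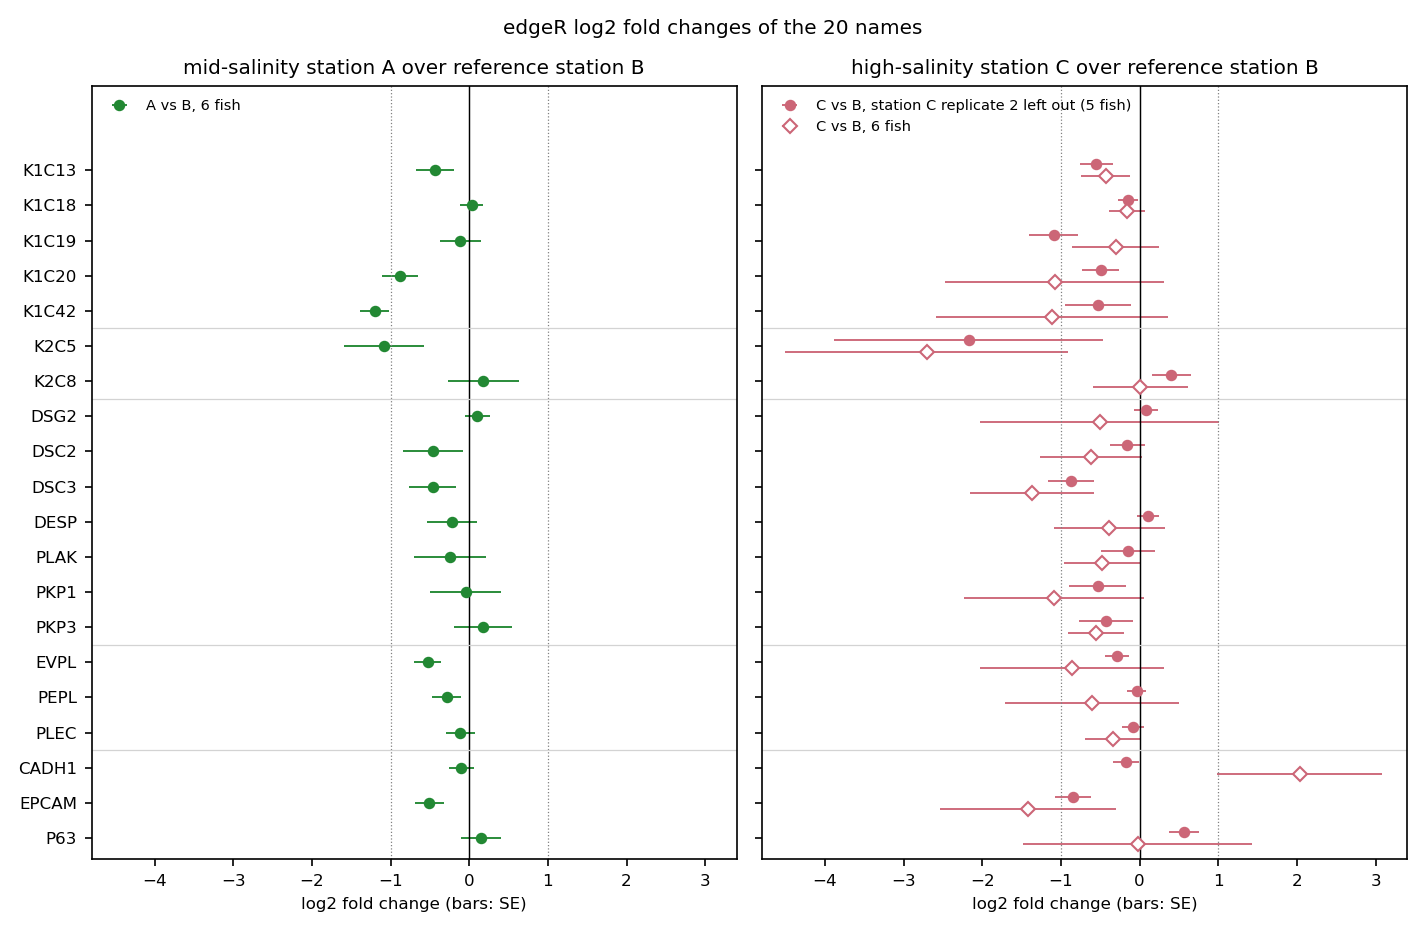
Log2 fold changes from edgeR with their standard errors for the 20 names, station A over station B on the left and station C over station B on the right, with all 6 fish (open diamonds) and without station C replicate 2 (filled circles). Dotted lines mark a fold change of 2. K1C42 lies at -1.20 on the left, and the bars of DSG2, P63, PEPL and EVPL on the right are short once station C replicate 2 is left out.

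In the comparison of station C with the reference station B, 0 of 20 members and 0 of 21950 features (0%) were called by edgeR. DESeq2 called 0 of 20 members and 0.278% of features, and it gave CADH1 no p, as its default does where a single count stands apart. At an unadjusted p under 0.05 there were 0 of 20 members, against 3.73% of features, and the standard errors reached 1.80 on the log2 scale. CADH1 had the largest positive value, 2.03 (SE 1.05), which was -0.17 (SE 0.16) without replicate 2. DSG2 had -0.51 (SE 1.52) with this fish and 0.08 (SE 0.15) without it, and P63 had -0.03 (SE 1.45) with it and 0.56 (SE 0.19) without it.

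Without station C replicate 2, 0 of 20 members and 0 of 23811 features (0%) were called by edgeR, and DESeq2 called 0 of 20 members and 0.647% of features. At an unadjusted p under 0.05 there were 5 of 20 members, against 6.2% of features. EPCAM, K1C19, DSC3 and K1C13 were the 4 with lower levels at station C, against 3.37% of features lower, and P63 the 1 with a higher level. EPCAM had 17.3 and 12.6 CPM at station C, against 22.2, 29.0 and 28.7 CPM at station B, a log2 fold change of -0.85 (SE 0.23). K1C19 had 5.81 and 8.30 CPM at station C, against 10.5, 17.5 and 16.6 CPM at station B, a log2 fold change of -1.09 (SE 0.31). The values of DSC3 and K1C13 were -0.87 (SE 0.29) and -0.55 (SE 0.21). DSC3 had 1.14 and 1.27 CPM at station C, against 2.33, 2.33 and 1.91 CPM at station B. Its rows lay in DN2081_c0_g1 and DN7348_c0_g1, and both genes as a whole overlapped between these stations. P63 had 179 and 167 CPM at station C, against 94.1, 115 and 139.6 CPM at station B. The edgeR adjusted p of all 5 was 0.752, and the median log2 fold change over the 20 names was -0.23, against 0.00 over all features. PEPL, DSG2 and PLEC differed by less than 0.1 on the log2 scale, with -0.03 (SE 0.12), 0.08 (SE 0.15) and -0.08 (SE 0.13). Stations A and C were both set against the same 3 fish of station B, so their values are not independent. K1C42, the lowest value at station A, had a log2 fold change of -0.53 (SE 0.42) at station C without replicate 2.

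Between stations C and A, edgeR called 0 of 20 members, against 1 of 21971 features (0.00455%), and DESeq2, again with no p for CADH1, called 0 of 20 against 1.23% of features. At an unadjusted p under 0.05 there were 0 of 20 members, against 4.22% of features. Without station C replicate 2, edgeR called 0 of 20 members and 0 of 23981 features (0%), DESeq2 0 of 20 members and 1.74% of features, and 1 of 20 members had an unadjusted p under 0.05, against 6.18% of features. That name was K1C19, with 5.81 and 8.30 CPM at station C, against 11.9, 12.1 and 17.1 CPM at station A, a log2 fold change of -0.98 (SE 0.29) and an edgeR adjusted p of 0.586. The other log2 fold changes without this fish lay between -1.09 (K2C5) and 0.67 (K1C42), with a median over the 20 names of -0.00, against -0.03 over all features.

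Summed by assembled gene, with the rows of other names that these genes hold, the fit of station A against station B called 0 of 34 tested member genes, against 0 of 21721 genes (0%). Of the 34, 7 had an unadjusted p under 0.05, against 5.75% of all genes. The gene DN820_c0_g2, which carries the names K1C13 and K1C42, had 16.2, 17.4 and 17.1 CPM at station A, against 43.9, 41.3 and 34.8 CPM at station B, without overlap and with a log2 fold change of -1.22 (SE 0.15) and an edgeR adjusted p of 0.220. A further gene, DN820_c1_g1, held most of the K1C13 level and had 499, 517 and 425 CPM at station A, against 731, 959 and 797 CPM at station B, a log2 fold change of -0.76 (SE 0.17). The gene DN5605_c0_g1, named K2C8 and K1C18, went the other way, with 71.5, 393 and 59.8 CPM at station A, against 12.2, 25.4 and 16.0 CPM at station B, a log2 fold change of 3.32 (SE 0.80). It was also high in replicate 3 of station C, at 425 CPM, and low in replicate 1, at 15.6 CPM, so that station C held both a high and a low fish. DESeq2 called 2 of the 34 genes, DN820_c0_g2 (adjusted p 3.21e-08) and DN5605_c0_g1 (adjusted p 0.000924), against 0.571% of all genes.

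Without station C replicate 2, the fit of station C against station B called 0 of 35 member genes, against 0 of 24184 genes (0%), and 8 of 35 had an unadjusted p under 0.05, against 6.23%. DESeq2 called 1 of 35, against 0.612%. It was DN820_c0_g3, the gene of most of the K1C19 level, with 4.20 and 2.41 CPM at station C, against 8.75, 14.2 and 11 CPM at station B, a log2 fold change of -1.79 (SE 0.36) in edgeR and an adjusted p of 0.00142 in DESeq2. DN820_c1_g1 had 482 and 629 CPM at station C and a log2 fold change of -0.59 (SE 0.19). DN820_c0_g2 had 32.8 and 11.3 CPM in these 2 fish of station C, below the 3 of station B as at station A, with a log2 fold change of -0.87 (SE 0.46). With replicate 2 in the fit, edgeR called 0 of 35 member genes, against 0 of 22078 genes (0%), DESeq2 called 0 of 35, against 0.258%, and 1 of 35 had an unadjusted p under 0.05 in edgeR, against 3.62%. DESeq2 gave no p to 4 of the 35 genes in that fit. With replicate 2, the log2 fold change of DN820_c0_g3 was -2.35 (SE 1.31) and that of DN820_c1_g1 was -1.17 (SE 1.45).

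Genes that share a name went separate ways in station C replicate 2, which sums per name hide. Of the 33 assembled genes with a median of at least 1 CPM in the other 8 fish, 25 were lower there than in each of those fish, against 40.3% of all 15121 such genes, 5 were higher, against 28.0%, and 3 were within their range. For K1C13, the rows of DN820_c1_g1 had 2.08 CPM in this library, against 425 to 959 CPM in the others, while those of DN344_c0_g2 had 882 CPM, against 52.7 to 409 CPM. The name as a whole was within the range of the other fish, while its share by gene was reversed. For PKP3, the rows of DN3451_c0_g2 had 12.5 CPM, against 308 to 721 CPM, and those of DN15434_c0_g1 had 225 CPM, against 6.09 to 15.4 CPM. For K1C19, DN820_c0_g3 had 0 counts and DN344_c0_g2 21.3 CPM, against 2.41 to 14.2 CPM and 1.61 to 13.2 CPM in the others.

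For K1C18 the main gene was within the range of the other fish in TMM CPM. The rows of DN7384_c0_g1 had 312 CPM in station C replicate 2, against 244 to 342 CPM in the others, and those of DN4169_c0_g1 had 104 CPM, against 81.9 to 162 CPM, both within the range. This rests on the scaling, since by the plain library total the 2 genes were at 57.0% and 54.9% of the median of the others. DN2305_c0_g1, with 11 transcripts, had 4.41 CPM, against 44.9 to 106 CPM. DESP had 4.80 CPM from DN1643_c0_g1, against 145 to 726 CPM, and 164 CPM from DN2837_c0_g1, against 503 to 820.2 CPM, so that DN2837_c0_g1 kept the larger share of its level. EVPL had 2.47 CPM from DN691_c3_g1, against 484 to 909.9 CPM, and 9.98 CPM from DN3238_c0_g1, against 13.4 to 24.8 CPM.

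Both DSG2 genes were near 0, with 1.36 CPM, against 504 to 694 CPM for DN596_c0_g1, and 0.194 CPM, against 128 to 186 CPM for DN7348_c0_g1. All 3 CADH1 genes were higher. DN19854_c0_g1 had 281 CPM, against 13.3 to 19.4 CPM, and DN19373_c0_g1 had 166 CPM, against 14.7 to 22.9 CPM. Within DN19854_c0_g1, transcript i1 carried 245 CPM in this library, against 0 to 0.760 CPM in the others, while transcript i2 had 35.9 CPM, against 12.6 to 19.4 CPM.

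**Figure D4:**
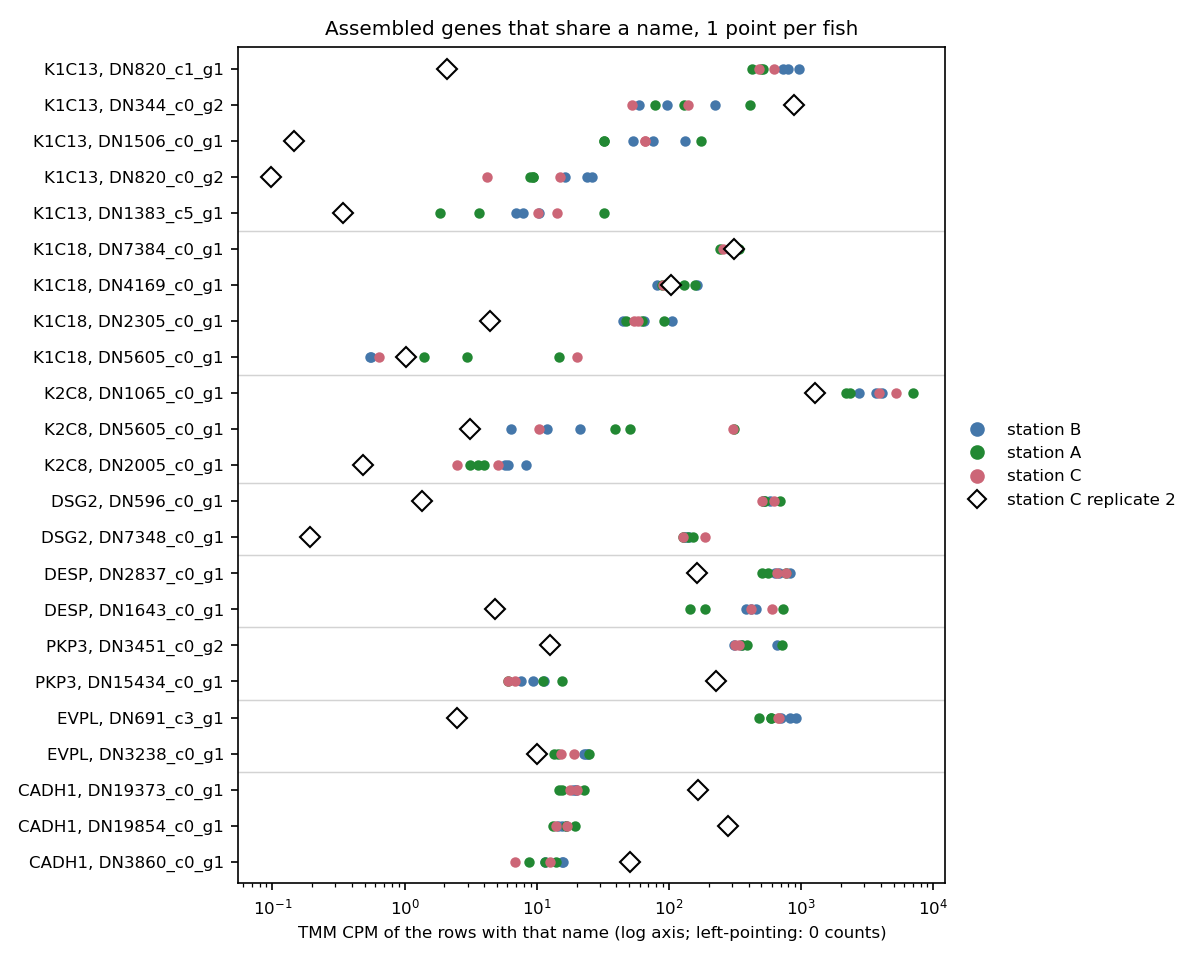
TMM CPM on a log axis of the assembled genes that share the names K1C13, K1C18, K2C8, DSG2, DESP, PKP3, EVPL and CADH1 and had a median of at least 1 CPM in the 8 fish, 1 point per fish and an open diamond for station C replicate 2. The diamond lies left of the points for DN820_c1_g1 and DN3451_c0_g2 and right of them for DN344_c0_g2, DN15434_c0_g1 and the 3 CADH1 genes.

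Transcripts of 1 gene also alternated between fish. A set of 5 named transcripts of DN1065_c0_g1 carried nearly all of the K2C8 level, and the gene held 1 further row, named ION3, that is not a member. With that row the gene had a median of 7285 CPM in the 8 fish, against 3786 CPM for its K2C8 rows alone. In replicate 2 of station C the 2 values were 1278 and 1268 CPM. Transcript i3 had 5889 CPM in replicate 3 of station A, 83.7% of the K2C8 level of the gene, and at most 179 CPM in any other fish. Transcript i11 had 0 counts in that fish and 1380.2, 2044 and 806 CPM at station B. Transcript i10 was high in replicate 3 of station B (1616 CPM), replicate 2 of station A (623 CPM) and replicates 1 and 3 of station C (1782 and 2368 CPM), and at most 34.7 CPM in the other 5. These 3 transcripts summed to between 880.3 and 5903 CPM in the 8 fish and to 3.97 CPM in replicate 2 of station C. Transcript i4 behaved otherwise, with 694 to 1424 CPM in the 8 fish and 1264 CPM in replicate 2 of station C, where it made up 99.7% of the K2C8 level of the gene.

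**Figure D5:**
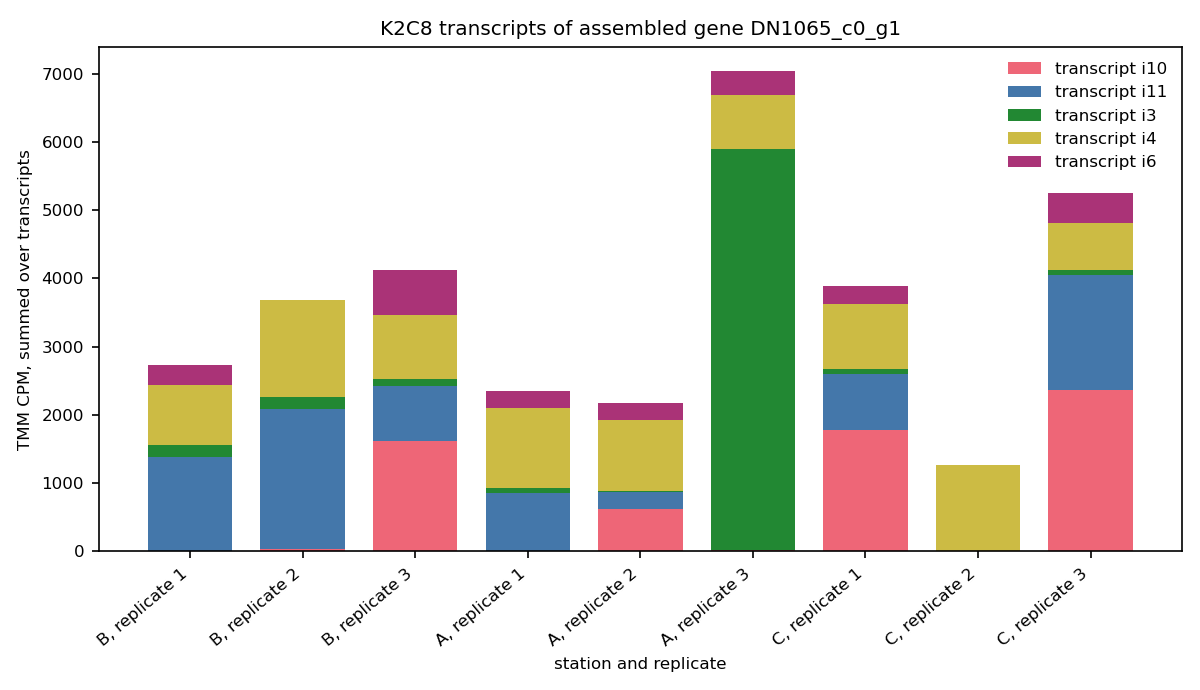
Stacked TMM CPM of the 5 K2C8 transcripts of DN1065_c0_g1 in each fish, by station in order of chloride. Transcript i3 makes up most of the bar of station A replicate 3, transcript i10 is large in 4 fish of the 3 stations, and the bar of station C replicate 2 consists almost wholly of transcript i4 at 99.7%.

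PEPL transcript i11 had 99.1 CPM in replicate 1 and 180.2 CPM in replicate 3 of station B and 0 counts in all other fish. Transcript i1 had 80.0, 189 and 0 CPM in replicates 1, 2 and 3 of station B, so that it had 0 counts where i11 was highest. Their sum lay between 115 and 197 CPM in the 8 fish. In the same way DSG2 transcripts i1 and i2 of DN596_c0_g1 replaced each other, with 49.1, 34.1 and 0 CPM for i1 and 0, 0 and 49.3 CPM for i2 in replicates 1, 2 and 3 of station A, and a sum between 29.7 and 49.3 CPM. These patterns were picked after their values were seen and are given without a test. Salmon divides reads between similar sequences, so alleles, isoforms and the division itself cannot be told apart in these values.

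Related gene lists were set beside the members. For station A against station B, edgeR called 0 of 6 tested names of hemidesmosomes and their basement membrane anchor, 0 of 9 adherens junction partners, 0 of 5 other desmosome and cornified envelope names, and 0 of 11 epithelial regulators, with 0 at an unadjusted p under 0.05 in each list and 0 called by DESeq2. Their median log2 fold changes were -0.13, -0.04, -0.06 and -0.04. Of 7 other intermediate filament names, 0 were called by edgeR and 2 (NFL and NFM, the light and medium neurofilament proteins of nerve) had higher values at an unadjusted p under 0.05, with a median of 0.86. Over all features, 698 of 21626 were higher at that p. DESeq2 called 1 of the 7, NFM, against 0.509% of all features. NFM had 1.79, 0.212 and 5.99 CPM at station A, against 0.150, 0.0932 and 0.305 CPM at station B. DESM (desmin), the filament of muscle, had 466, 733 and 198 CPM at station A, against 122, 108 and 547 CPM at station B, and skeletal muscle markers summed to 3709 to 9496 CPM at station A, against 1038 to 6980.0 CPM at station B. Their part in the values of the keratins was not tested. Between station C without replicate 2 and station B, 0 names of these 5 lists were called by edgeR or DESeq2. In edgeR, 1 name had an unadjusted p under 0.05, against 6.2% of all features. It was TGM1 (transglutaminase 1, which cross-links the cornified envelope), with 25.5 and 30.8 CPM at station C, against 19.6, 16.2 and 21.1 CPM at station B.

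With replicate 2 in the fit, 0 names of the 5 lists were called by edgeR or DESeq2 and 0 had an unadjusted p under 0.05 by either. In edgeR, 3.73% of all features had such a p. In station C replicate 2, the sums of 4 of the 5 lists were below those of the other 8 fish. The other intermediate filament names were the exception, with 629 CPM, against 249 to 921 CPM, where DESM had 562 CPM against 108 to 733 CPM. In that list 4 of 8 names were lower than in the other fish, against 39.2% of all features with a median of at least 1 CPM. Hemidesmosome and basement membrane anchor names summed to 103 CPM, against 589 to 845 CPM, with ITB4 (integrin beta 4) at 3.15 CPM against 111 to 216 CPM. The adherens junction partners summed to 597 CPM, against 1202 to 1609 CPM. All 9 were lower than in the other 8 fish, against 39.2% of all features with a median of at least 1 CPM. Among them AFAD (afadin) had 115 CPM against 133 to 166 CPM, and NECT4 (nectin 4) 0.388 CPM against 119 to 211 CPM. CTNB1 (beta catenin) was lower only by a narrow gap and at a low level, with 0.775 CPM against 0.788 to 2.25 CPM.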

How the data were processed

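The authors trimmed the reads with Trimmomatic, assembled all 9 libraries de novo with Trinity, named the transcripts with Trinotate and quantified them with Salmon. The deposited values used here are estimated counts per transcript and fish. They were summed per entry name, or per assembled gene for the 55.6% of transcripts without a name, and rounded to whole numbers. Estimated counts summed to between 22049066 and 46214540 per fish, so that 3 counts, taken as the limit that a count of 0 allows, stand for 0.0578 to 0.145 CPM. Intervals of 95% are exact Poisson and cover counting error only. Fish were grouped by the station and chloride concentration in their labels.

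Each pair of stations was fitted with the quasi-likelihood test of edgeR 4.0.16 (filterByExpr, TMM) in R 4.3.3, and a feature was called where the adjusted p did not exceed 0.05 and the log2 fold change was over 1 in either direction. The main test is edgeR, and DESeq2 1.42.0, the tool the authors name, is an alternative. Standard errors were derived from the F statistic, as the ratio of the log2 fold change to its root. The test was run on simulated data before use. The rule for names took every desmosome, linker and adhesion name, P63, and the 6 keratin names of each type with the highest mean CPM. The rule covers all 20 names, and it also took the assembled gene that holds the largest share of a name. Further assembled genes, all transcripts, and the single names given from the related and marker lists were chosen after their values were seen. The members, the related lists and the markers were chosen with earlier results of these data known. Nothing says how the fish of a station are related, so p-values measure the spread between these fish. Alternatives were RLE size factors, no filter, a filter above 1 CPM in 2 fish, no fold limit, all 9 fish in the fit, a replicate block, fits per transcript, names found anywhere in the row, and each fish left out in turn. Fits of 8 fish and DESeq2 without station C replicate 2 were added after the data were seen. Tables and figures were made with Python 3.11.15, pandas 2.3.3, scipy 1.17.1 and matplotlib 3.10.9. Transcript lengths, sequences and genome positions were not used here.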

Additional observations from a re-analysis of the deposited data

How the results depend on the processing

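With 3 fish a station, a change of a single name must be large to be called, and station C replicate 2 had counts near 0 for some members, which limits their values at station C. Among all features, the count called for station A against station B was 8 with no filter on low counts and 110 with DESeq2, and it lay between 0 and 5 when single fish were left out. Among the members, DESeq2 called 1 name and 2 assembled genes for that comparison. Between stations C and B, DESeq2 called 61 features, and 154 without station C replicate 2. In the separate fit per assembled gene without that fish, it called 1 member gene. For station C against station A, the 1 feature called became 0 with RLE size factors, the filter above 1 CPM in 2 fish, all 9 fish in the fit, 8 fish in the fit and fits per transcript, and 0 to 0 when single fish were left out, while DESeq2 called 270, and 418 without station C replicate 2. By the plain library total, the summed level of the 20 names in station C replicate 2 was 2337 CPM. That basis leaves out the TMM factor of this library, 0.590, so each of its levels is lower than in TMM CPM. The sums of the other fish on that basis are not given here.

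The sign of some log2 fold changes rested on station C replicate 2. Between stations C and B, with 8 fish in the fit and with DESeq2 without this fish, the values were -0.18 and -0.18 for CADH1, 0.095 and 0.10 for DESP, 0.072 and 0.074 for DSG2, and 0.55 and 0.56 for P63. For station C against station A they were -0.077 and -0.070 for CADH1, 0.32 and 0.32 for DESP, 0.30 and 0.31 for DSC2, 0.24 and 0.25 for EVPL, -0.12 and -0.11 for K1C13, 0.38 and 0.38 for K1C20, 0.22 and 0.23 for K2C8, 0.40 and 0.41 for P63, 0.25 and 0.26 for PEPL, 0.10 and 0.11 for PLAK, and 0.023 and 0.030 for PLEC. K1C13 was -0.00037 there with no filter on low counts.

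When single fish were left out, values that changed sign ranged as follows for station A against station B. DSG2 lay between -0.0098 and 0.16, K1C18 between -0.034 and 0.11, K1C19 between -0.32 and 0.020, K2C8 between -0.50 and 0.43, P63 between -0.13 and 0.31, PKP1 between -0.57 and 0.19, PKP3 between -0.18 and 0.57, PLAK between -0.89 and 0.0088, and PLEC between -0.26 and 0.024. Between stations C and B, CADH1 lay between -0.17 and 2.52, DESP between -0.76 and 0.10, DSG2 between -1.11 and 0.079, K1C19 between -1.09 and 0.026, K2C8 between -0.44 and 0.41, and P63 between -0.50 and 0.56. For station C against station A, CADH1 lay between -0.075 and 2.67, DESP between -0.51 and 0.32, DSC2 between -0.71 and 0.44, EVPL between -0.74 and 0.24, K1C13 between -0.12 and 0.27, K1C19 between -0.98 and 0.18, K1C20 between -0.89 and 0.38, K1C42 between -1.12 and 0.67, K2C8 between -0.59 and 0.53, P63 between -0.63 and 0.40, PEPL between -0.71 and 0.25, PLAK between -0.67 and 0.44, and PLEC between -0.42 and 0.024.

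Deviations of fish with the same replicate number correlated between -0.12 and 0.14, which with so few fish neither shows nor excludes a pairing. The replicate numbers are those of the sample titles. For some fish of stations A and C they differ from the number in the header of the counts, and a pairing by header was not tested. For station A against station B, the own number was the best match for numbers 1 and 3. In the comparisons with station C it was so for no number. With the replicate block, K2C8 was -0.17 for station C against station B, K1C42 was -1.01 for station C against station A, and the 1 feature called for station C against station A became 0. The block called 0 member names in each comparison. The cause of these changes was not tested.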
